A study of Homo sapiens with 6 samples.

Results

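The 10 amino acid transporter genes SLC7A5, SLC3A2, SLC7A11, SLC7A1, SLC7A6, SLC1A5, SLC1A4, SLC38A1, SLC38A2 and SLC43A1 were followed after knockdown of PNO1 in HCT116, an established human line from a colorectal carcinoma. The data used were all probe sets whose only gene symbol is 1 of these 10, which gave 37 probe sets of the 49293 tested, for 10 of 18132 genes. The sh-PNO1 group held 3 samples collected 72 h after lentiviral delivery of an shRNA (a short hairpin RNA that silences a gene) directed at PNO1, a nucleolar factor needed to make the small ribosomal subunit. The sh-Ctrl group held 3 samples transduced in the same way with a control shRNA. Every sample therefore carried a lentiviral hairpin, and untransduced cells and further hairpins were not analysed here. Each sample was hybridised to 1 Affymetrix array, and the values are intensities on a linear scale, of which log2 was taken for every fold change. Whether replicates were grown as separate cultures is not stated in the labels, and each p-value therefore reflects array-to-array spread that may be technical only.

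Amino acids enter cells through carriers that differ in what they exchange and what drives them. SLC3A2 (the 4F2 heavy chain) carries no substrate of its own. It brings light chains of the SLC7 family to the plasma membrane, among them SLC7A5 (LAT1, large neutral amino acids such as leucine), SLC7A11 (xCT, cystine in exchange for glutamate) and SLC7A6 (y+LAT2, cationic against neutral amino acids). SLC1A5 (ASCT2) exchanges glutamine and other small neutral amino acids with sodium, and SLC38A1 and SLC38A2 (SNAT1 and SNAT2) take up glutamine and alanine with sodium. Proliferating cancer cells usually rely on LAT1, ASCT2 and the SNAT carriers, and the transcription factor ATF4 induces several of these genes when amino acids run short.

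PNO1 itself was measured at an intensity of 106 ± 1.98 in sh-PNO1 and 534 ± 1.70 in sh-Ctrl (SD, n = 3 each) on its brightest probe set, so that 19.8% of the control signal remained. Array medians lay between 25.6 and 25.9, and log2 values over all probe sets correlated at 0.998 to 0.999 among arrays of 1 group and at 0.992 to 0.993 across the groups. The 23 background probe sets of the array, which rise with GC content, averaged 2.53 to 773, and the GC content of the members' probes was not used, so the dimmest members may lie near background. The background probe set of highest GC content averaged 804 in sh-PNO1 and 741 in sh-Ctrl, and that of lowest GC content 2.52 and 2.54. The part of this group difference in the results was not tested. The ACTB 3' control probe set exceeded the 5' one by 1.79, 2.25 and 1.73 on the log2 scale in sh-PNO1 replicates 1, 2 and 3, against 1.87, 1.86 and 1.82 in sh-Ctrl. The same difference for GAPDH was −0.06, −0.08 and −0.06 in sh-PNO1 and −0.03, −0.02 and −0.01 in sh-Ctrl. It separated the groups, and its part in the results below was not tested. Of 10 markers of colorectal epithelium, EPCAM averaged 1908 in sh-PNO1 and 1998 in sh-Ctrl, and KRT8 averaged 2012 and KRT18 2412 in sh-PNO1, against 1878 and 2469 in sh-Ctrl. KRT19 (log2 fold change 0.37) and CDH1 (0.31) rose, while VIL1 (4.38 in sh-PNO1, 4.88 in sh-Ctrl) and CDH17 (10.7 in sh-PNO1, 11.1 in sh-Ctrl) were dim in both groups. The summed intensity of 10 markers of blood, endothelium, stroma and muscle was 230.3 to 238 in sh-PNO1 and 188 to 198 in sh-Ctrl. ACTA2, which averaged 74.9 in sh-PNO1 and 40.7 in sh-Ctrl, made up most of this difference. Of these 10, only ACTA2 passed (0.88), and its direction turned to −0.11 once probe sets of the suffixes _x_at and _s_at were left out. Their levels differed: PTPRC (3.65 in sh-PNO1, 3.79 in sh-Ctrl) and DCN (6.17 in sh-PNO1, 7.62 in sh-Ctrl) were at the low end of the array's range. VWF (37.5 in sh-PNO1, 35.7 in sh-Ctrl) and DES (35.3 in sh-PNO1, 35.8 in sh-Ctrl) lay at percentiles 57.5 and 57 of all probe sets tested. CD3E and PECAM1 lay at percentiles 42.9 and 42.5. The part of these other-cell markers in the results was not tested.

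A probe set passed at an adjusted p under 0.05 in limma, fitted on all 49293 probe sets with Benjamini-Hochberg adjustment over all of them. A gene was read at its representative, the probe set with the highest mean over the 6 arrays. Of the 10 transporter genes 5 fell, 1 rose and 4 did not pass, so that 60% were called, against 31.6% of all genes. The arrays of the groups did not overlap for 9 of the 10, 6 with sh-PNO1 below and 3 with sh-PNO1 above, where 44.7% of all genes showed no overlap. The 5 that fell were SLC7A5, SLC1A5, SLC38A1, SLC3A2 and SLC38A2, against 13.2% of all genes lower. SLC7A6 was the gene that rose, against 18.4% of all genes higher. The median log2 fold change of the 10 was −0.18, and that of all genes was 0.03.

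Over the 37 probe sets 21 passed as lower (56.8%, against 13.2% of all probe sets), 5 passed as higher (13.5%, against 14.8%) and 11 did not pass, where 28% of all probe sets passed in either direction. The arrays of the groups did not overlap for 30 of them, that is 81.1% against 40.2% of all probe sets. All sh-PNO1 arrays lay below in 23 (18.3% of all probe sets) and above in 7 (21.9%). The count of 5 higher probe sets fell to 2 without sh-PNO1 replicate 3, to 2 without sh-Ctrl replicate 2 and to 3 without sh-Ctrl replicate 3, while the 21 lower ones stayed at 19 to 21 whichever array was left out. Of the 9 genes with more than 1 probe set, 5 had every probe set passing in 1 direction (55.6%, against 11% of such genes over the array). These were SLC3A2, SLC1A5, SLC38A1 and SLC38A2, all lower, and SLC7A6, higher. Probe sets of 1 gene were read on the same arrays and are not independent. Of the 21 lower ones SLC3A2 gave 7, SLC38A1 5, and SLC1A5 and SLC38A2 3 each, so genes with many probe sets weigh more in these shares. The shares over the array were not matched to the members for brightness, and many members are bright. Without the dimmest 30% of probe sets 14282 of 34505 passed, a larger share, against 13791 of 49293 in the main fit.

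**Figure D1:**
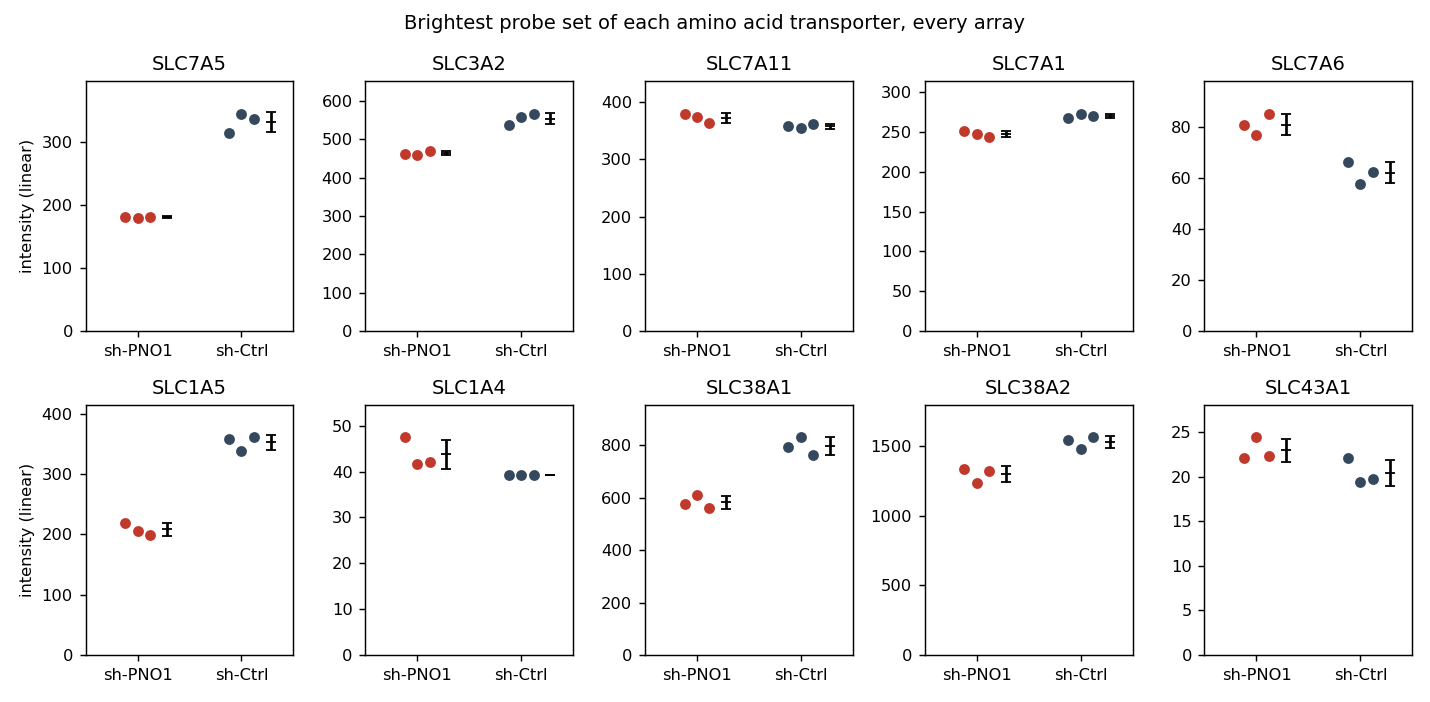
Intensity on a linear scale of the brightest probe set of each of the 10 genes, 1 point per array, sh-PNO1 left and sh-Ctrl right, with the mean and SD beside the points. The sh-PNO1 points lie below all sh-Ctrl points for SLC7A5, SLC3A2, SLC7A1, SLC1A5, SLC38A1 and SLC38A2, above them for SLC7A11, SLC7A6 and SLC1A4, and share the value 22.1 with an sh-Ctrl array for SLC43A1.

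SLC7A5, the leucine and large neutral amino acid carrier, showed the largest change of the 10 representatives, a rank that held at the brightest probe set and not with probe sets averaged. Its brightest probe set read 182, 179 and 182 on the sh-PNO1 arrays, against 314, 345 and 336 on the sh-Ctrl arrays. All 3 sh-PNO1 arrays were close together and far below every sh-Ctrl array. The level kept was 54.5% of sh-Ctrl (limma adjusted p = 1.30e-05, log2 fold change −0.87 ± 0.05 SE). The other SLC7A5 probe set moved much less: it read 74.6, 79.7 and 74.2 in sh-PNO1, against 82.2, 91.0 and 82.2 in sh-Ctrl. Its groups did not overlap, but it did not pass (−0.16, 95% interval −0.29 to −0.03, adjusted p = 0.0762). It carries the suffix _s_at, given where probes can hit more than 1 transcript, and the human genome holds the SLC7A5 pseudogenes SLC7A5P1 and SLC7A5P2; what this probe set matches was not tested. With both probe sets averaged, SLC7A5 changed by −0.52 (adjusted p = 4.65e-05), less than SLC1A5 at −0.70.

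SLC3A2, the heavy chain that SLC7A5, SLC7A11 and SLC7A6 share, fell on all 7 of its probe sets. The brightest read 462, 459 and 469 in sh-PNO1, against 537, 557 and 566 in sh-Ctrl, a log2 fold change of −0.26 ± 0.04 SE (adjusted p = 0.00283). The others ranged down to −0.48 ± 0.06 SE, the value of the dimmest, which averaged 142 ± 9.40 in sh-PNO1 and 198 ± 3.80 in sh-Ctrl. On each of the 7 probe sets every sh-PNO1 array lay below every sh-Ctrl array. The brightest has the suffix _x_at, also given where probes can hit other transcripts. Without probe sets of the suffixes _x_at and _s_at the representative changed by −0.39 (adjusted p = 0.00163).

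SLC7A11, which imports cystine for glutathione synthesis, stood at or slightly above its control level. Its brightest probe set read 379.5, 373 and 363 in sh-PNO1, against 358, 354 and 362 in sh-Ctrl, a difference of 0.05 on the log2 scale (95% interval −0.04 to 0.15, adjusted p = 0.388). The sh-PNO1 arrays were all above, but the lowest of them was nearly level with the highest sh-Ctrl array. Its 2 dimmer probe sets passed as higher, by 0.18 (167 ± 3.17 in sh-PNO1, 147 ± 4.96 in sh-Ctrl, adjusted p = 0.0192) and by 0.24 (73.9 ± 3.24 in sh-PNO1, 62.6 ± 3.55 in sh-Ctrl, adjusted p = 0.0159). The first of these calls was lost without sh-PNO1 replicate 3, sh-Ctrl replicate 1 or sh-Ctrl replicate 2 (adjusted p up to 0.0648). The second was lost without sh-PNO1 replicate 1, sh-PNO1 replicate 3, sh-Ctrl replicate 2 or sh-Ctrl replicate 3 (up to 0.0627). With its 3 probe sets averaged SLC7A11 passed as higher (0.16, adjusted p = 0.00892).

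SLC7A6 exports cationic amino acids such as arginine in exchange for neutral ones. Among the members, it was the light chain that passed as higher at its brightest probe set. SLC7A8, a light chain outside the members, also rose, by 0.38 at its brightest probe set. The brightest SLC7A6 probe set read 80.9, 76.8 and 85.3 in sh-PNO1, against 66.3, 57.9 and 62.3 in sh-Ctrl, with no overlap. The log2 fold change was 0.38 ± 0.06 SE (adjusted p = 0.00294), and the other 2 probe sets rose by 0.29 and 0.38. The call at 0.29 was lost when any 1 of sh-PNO1 replicate 2, sh-PNO1 replicate 3, sh-Ctrl replicate 2 and sh-Ctrl replicate 3 was dropped from the fit (adjusted p up to 0.0702).

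SLC7A11 and SLC7A6 were higher relative to their heavy chain in sh-PNO1 than in sh-Ctrl, while for SLC7A5 the direction depended on the probe set. The ratios were formed within each array, first at the brightest probe sets. The log2 signal of SLC7A5 minus that of SLC3A2 stood at −0.61, −0.62 and −0.63 on the sh-PNO1 arrays relative to the sh-Ctrl mean. The same quantity stood at 0.34, 0.33 and 0.26 for SLC7A11 and at 0.64, 0.58 and 0.70 for SLC7A6. The difference between groups was −0.62 for SLC7A5, 0.31 for SLC7A11 and 0.64 for SLC7A6. In each of the 3 ratios all sh-PNO1 arrays lay on 1 side of all sh-Ctrl arrays. By exact permutation (two-sided) p was 0.1 for each, the smallest p possible with 3 arrays in each group, and it was 0.1 after adjustment over the 3 ratios. Leaving out any 1 array kept these differences at −0.63 to −0.59, 0.29 to 0.34 and 0.58 to 0.71. Without _x_at and _s_at probe sets, which changes the representatives of SLC3A2 and SLC7A11, they were −0.49, 0.57 and 0.77. With all probe sets of a gene averaged, an alternative chosen after seeing the data, the differences were −0.16 for SLC7A5, 0.51 for SLC7A11 and 0.70 for SLC7A6, again with no overlap between groups (exact permutation p = 0.1 for each). With the second SLC7A5 probe set in place of the brightest, also chosen after seeing the data, the SLC7A5 difference turned to 0.10 and the groups overlapped (exact permutation p = 0.3). Over all pairs of a light chain probe set with an SLC3A2 probe set, the difference was below 0 in 7 of 14 pairs for SLC7A5 and above 0 in all 21 pairs each for SLC7A11 and SLC7A6. The pair counts add no evidence, since every SLC3A2 probe set changed downward and every SLC7A11 and SLC7A6 probe set upward. For SLC7A5, 1 probe set fell more than every SLC3A2 probe set and the other fell less. These ratios show unequal change of 2 signals on 1 array, not the amount of either protein.

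**Figure D2:**
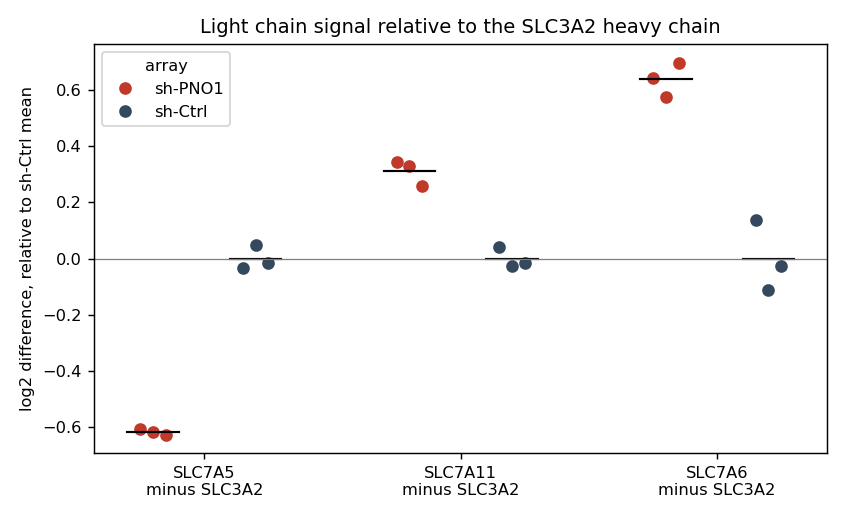
Log2 signal of each light chain minus log2 signal of SLC3A2 at their brightest probe sets, relative to the sh-Ctrl mean, 1 point per array with the group mean as a line, sh-PNO1 left of sh-Ctrl. The sh-PNO1 means stand at −0.62 for SLC7A5, 0.31 for SLC7A11 and 0.64 for SLC7A6, and no sh-PNO1 point reaches an sh-Ctrl point; with the second SLC7A5 probe set its difference turns to 0.10.

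SLC7A1 (CAT1) is the main cationic amino acid carrier of most cells, bringing in arginine and lysine without SLC3A2. Its brightest probe set read 251, 247 and 243 in sh-PNO1, against 267, 273 and 269 in sh-Ctrl. The groups did not overlap, but the difference of −0.12 did not pass (95% interval −0.22 to −0.03, adjusted p = 0.0566). It passed under 5 of 16 alternatives, among them 1 probe set per gene tested (adjusted p = 0.0357). Its 2 probe sets of middle brightness passed as lower, at −0.32 (52.0 ± 4.07 in sh-PNO1, 65.0 ± 5.34 in sh-Ctrl) and −0.28 (33.6 ± 3.32 in sh-PNO1, 40.7 ± 2.38 in sh-Ctrl). Both calls were lost when single arrays were left out, the first without sh-PNO1 replicate 3 or sh-Ctrl replicate 1 (adjusted p up to 0.0555). The second was lost without sh-PNO1 replicate 2, sh-PNO1 replicate 3, sh-Ctrl replicate 1 or sh-Ctrl replicate 3 (up to 0.111). The dimmest probe set, at 6.09 ± 0.26 in sh-PNO1 and 6.59 ± 0.43 in sh-Ctrl, overlapped between groups.

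SLC1A5 and SLC1A4 are paralogues, both exchangers of small neutral amino acids. SLC1A5, the glutamine carrier, read 219.7, 205 and 199.9 on its brightest probe set in sh-PNO1, against 359, 338 and 361 in sh-Ctrl. The groups were far apart, with every sh-PNO1 array well below the lowest sh-Ctrl array. The log2 fold change was −0.76 ± 0.05 SE (adjusted p = 3.76e-05), and the other 2 probe sets fell by 0.63 and 0.70. SLC1A4 (ASCT1), which prefers serine and alanine, read 47.4, 41.7 and 42.0 in sh-PNO1, against 39.3, 39.2 and 39.2 in sh-Ctrl. This was 0.15 higher on the log2 scale but did not pass (95% interval 0.02 to 0.29, adjusted p = 0.0905). It was 0.09 without sh-PNO1 replicate 1 and 0.04 for SLC1A4 with probe sets averaged. Of its 6 probe sets 0 passed in limma and 1, the brightest, had an unadjusted p under 0.05. They ranged from −0.10 to 0.15, and the 3 dimmest averaged between 7.37 and 11.6 in both groups.

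SLC38A1 and SLC38A2, the sodium-driven importers of glutamine and alanine, both fell on every probe set. SLC38A1 read 578, 609 and 561 on its brightest probe set in sh-PNO1, against 795, 830.5 and 762 in sh-Ctrl, a log2 fold change of −0.45 ± 0.05 SE (adjusted p = 0.00048). Its 5 probe sets ranged from −0.58 to −0.36 with no overlap between groups. For SLC38A2 the brightest probe set read 1338, 1234 and 1325 in sh-PNO1, against 1547, 1478 and 1563 in sh-Ctrl, a log2 fold change of −0.24 ± 0.05 SE (adjusted p = 0.00938). Its 2 dim probe sets changed by −0.60 ± 0.04 SE (41.6 ± 0.03 in sh-PNO1, 62.9 ± 0.45 in sh-Ctrl) and by −0.74 ± 0.08 SE (34.7 ± 3.55 in sh-PNO1, 57.7 ± 1.60 in sh-Ctrl). The size of the SLC38A2 change thus depended on the probe set, and the average of the 3 was −0.52 (adjusted p = 4.18e-05).

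SLC43A1 (LAT3), a carrier of leucine and other branched amino acids that works without SLC3A2, had 1 dim probe set. It read 22.1, 24.4 and 22.3 in sh-PNO1, against 22.1, 19.4 and 19.7 in sh-Ctrl, so the groups shared their edge value. The difference of 0.17 did not pass (95% interval 0.02 to 0.32, adjusted p = 0.0971), and it passed at 0.23 without sh-Ctrl replicate 1 (adjusted p = 0.0402). In SLC3A2, SLC7A11 and SLC38A2, 3 of the 9 genes with more than 1 probe set, the brightest probe set showed the smallest change. In SLC7A5, SLC7A6, SLC1A5 and SLC1A4 the brightest showed the largest, and no such share was taken over all genes.

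**Figure D3:**
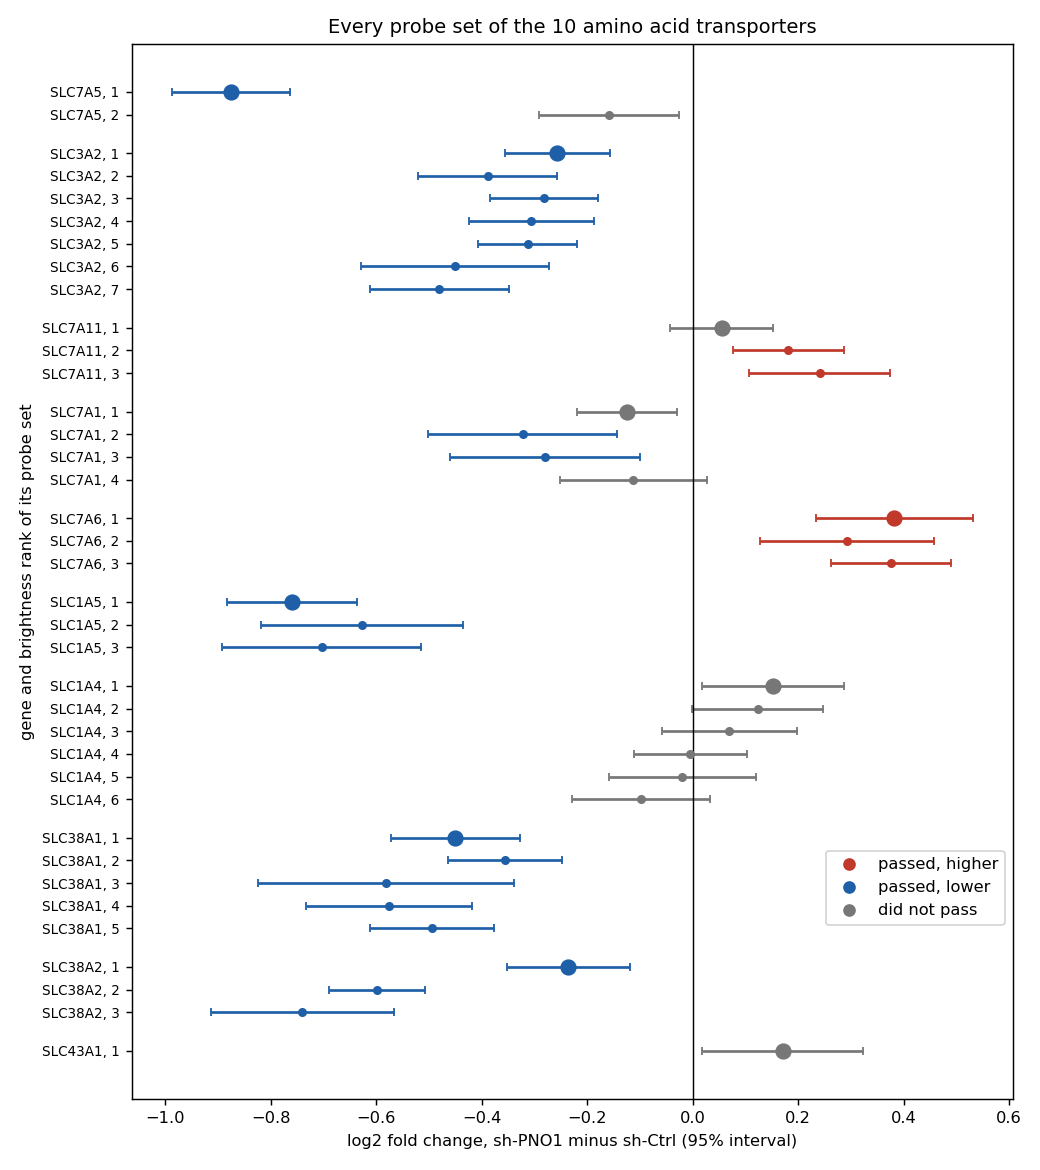
Log2 fold change, sh-PNO1 minus sh-Ctrl, of all 37 probe sets with the 95% interval from limma, ordered by gene and by brightness within a gene (rank 1, the large point, is the representative), coloured by whether it passed. The intervals of all probe sets of SLC3A2, SLC1A5, SLC38A1 and SLC38A2 lie below 0 and those of SLC7A6 above it, and the 2 intervals of SLC7A5 do not overlap.

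The promoters of the members were searched because several members moved together and because the C/EBP-ATF response element, through which ATF4 and its partners act, is known in amino acid transporter genes. RefSeq start sites on GRCh38.p14 gave 16 windows for 9 of the 10 genes, each of 250 bases before and 50 after a start; SLC7A11 had no entry. The motif TGATGNAA was searched on both strands; it was not compared with other motifs that overlap it. It was present in 5 of the 16 windows (31.2%), 1 each for SLC3A2, SLC7A1, SLC1A5, SLC1A4 and SLC38A1, against 3.62% of all 35116 windows. This share was no test, since the motif was chosen because it is known in amino acid transporter genes. The 5 matches are shown with their flanks, since they lie in genes that fell and in genes that did not pass; capitals mark the match, which reads TTNCATCA where it lies on the other strand.
SLC3A2: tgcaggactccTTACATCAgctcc
SLC7A1: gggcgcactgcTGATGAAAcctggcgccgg
SLC1A5: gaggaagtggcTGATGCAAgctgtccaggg
SLC1A4: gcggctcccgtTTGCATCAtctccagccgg
SLC38A1: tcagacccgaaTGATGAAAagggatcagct
They stand at chr11:62881725-62881748 (plus strand), chr13:29595663-29595692 (minus), chr19:46784893-46784922 (minus), chr2:64989381-64989410 (plus) and chr12:46266502-46266531 (minus), in the order of the list. For SLC3A2 and SLC1A5 1 of 3 windows held a match, for SLC1A4 and SLC38A1 1 of 2 and for SLC7A1 its only window, and the arrays do not say which start was used. Of the genes with a match, SLC3A2, SLC1A5 and SLC38A1 fell, and SLC7A1 and SLC1A4 did not pass. Of the searched genes without a match, SLC7A5 and SLC38A2 fell, SLC7A6 rose and SLC43A1 did not pass. Bases outside the windows were not searched, so a gene without a match may still hold the motif elsewhere. The window of SLC7A5, the gene with the largest change at the brightest probe set, held no match to these letters. Its 250 bases before the start, chr16:87869508-87869757 on the minus strand, are shown for comparison.
SLC7A5: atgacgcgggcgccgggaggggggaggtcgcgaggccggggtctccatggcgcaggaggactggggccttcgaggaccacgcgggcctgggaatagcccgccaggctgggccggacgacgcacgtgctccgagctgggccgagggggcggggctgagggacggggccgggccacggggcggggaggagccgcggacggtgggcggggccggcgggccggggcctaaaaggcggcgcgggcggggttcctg
A match is a description of the letters only, and binding was not measured. The transcript of ATF4, named after its values were seen, averaged 2399 ± 39.4 in sh-PNO1 and 2369 ± 38.6 in sh-Ctrl (SD, n = 3 each), a difference of 0.02 that did not pass (adjusted p = 0.787). ASNS, the asparagine synthetase gene that ATF4 induces, rose by 0.22 ± 0.05 SE (1601 ± 43.7 in sh-PNO1, 1375 ± 36.8 in sh-Ctrl, adjusted p = 0.00806). It too was named after its values were seen, from 34 measured enzymes of which 9 rose, 5 fell and 20 did not pass. Of the others CTH rose by 0.25, PYCR1 changed by −0.20, and PSAT1 (0.22), CHAC1 (0.19), PHGDH (0.11) and SHMT2 (0.01) did not pass. Genes that ATF4 induces were not examined as a set, and the ATF4 protein was not measured.

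The wider set of amino acid transporters went both ways. Of 44 other carriers, all measured, 5 rose, 7 fell and 32 did not pass, so that 27.3% were called, against 31.6% of all genes, with a median log2 fold change of 0.03. SLC1A3, a glutamate and aspartate importer, read 93.2, 82.0 and 86.7 in sh-PNO1, against 48.2, 47.8 and 48.0 in sh-Ctrl (0.86 ± 0.05 SE, adjusted p = 2.39e-05). SLC16A10, an aromatic amino acid carrier, rose by 0.53, the light chain SLC7A8 (LAT2) by 0.38 and the lysosomal proton-coupled carrier SLC36A1 by 0.32. SLC6A6, the taurine carrier, read 135, 127 and 135 in sh-PNO1, against 230.2, 223 and 241 in sh-Ctrl (−0.81 ± 0.05 SE, adjusted p = 2.21e-05). SLC43A3, a paralogue of SLC43A1 but not itself an established amino acid carrier, changed by −0.44. SLC38A10 changed by −0.38 and SLC38A7, a lysosomal glutamine carrier, by −0.32. Several of these rested on the brightest probe set. With probe sets averaged, SLC7A8 (0.06), SLC36A1 (0.11) and SLC38A10 (−0.10) no longer passed (adjusted p = 0.243, 0.0626 and 0.0966), SLC36A1 did not pass without _x_at and _s_at probe sets either (0.11, adjusted p = 0.252), and SLC6A6 stood at −0.14, SLC1A3 at 0.31, SLC16A10 at 0.19 and SLC38A7 at −0.12, all passing.

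Most genes that sense amino acids for mTORC1, the growth kinase complex, and for the kinase GCN2 did not pass, and those that passed were mostly higher. Of 37 measured of 40 listed, 12 rose, 1 fell and 24 did not pass (35.1%, against 31.6% of all genes), a share near the background. The 12 are 32.4% of the list, against 18.4% of all genes higher, and the 1 is 2.7%, against 13.2% lower; with probe sets averaged the counts were 16 higher and 5 lower. The median was 0.11, against 0.03 for all genes. RRAGC, a Rag GTPase that recruits mTORC1 to the lysosome, read 197, 204 and 203 in sh-PNO1, against 129.5, 127 and 124 in sh-Ctrl (0.67 ± 0.04 SE, adjusted p = 2.59e-05). SESN2, a leucine sensor that restrains mTORC1, rose by 0.57, its paralogue SESN1 by 0.43 and the Rag GTPase RRAGD by 0.43. The gene that fell was FNIP2, a partner of folliculin (−0.69 ± 0.05 SE, adjusted p = 2.68e-05). On the GCN2 side EIF2AK4, the gene of GCN2 itself (−0.02), GCN1 (0.02), IMPACT (−0.33) and ATF4 (0.02) did not pass, and EIF2S1 rose by 0.37. With probe sets averaged RRAGD rose by 0.26, and with 16 added to each intensity FNIP2, which averaged 21.6 ± 0.60 in sh-PNO1 and 34.9 ± 0.86 in sh-Ctrl, changed by −0.44; both still passed.

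Enzymes that make or use the carried amino acids also went both ways, 9 of 34 measured (of 40 listed) rising, 5 falling and 20 not passing (41.2%, against 31.6% of all genes), with a median of 0.09. The 9 became 5 without sh-Ctrl replicate 3. ARG2, the mitochondrial arginase, read 62.2, 68.7 and 70.1 in sh-PNO1, against 34.2, 36.5 and 35.5 in sh-Ctrl (0.92 ± 0.06 SE, adjusted p = 2.26e-05). GOT1, the cytosolic aspartate aminotransferase, rose by 0.64, BCAT2, the mitochondrial transaminase of branched amino acids, by 0.41 and DBT, a subunit of the complex that next degrades them, by 0.43. GLUD1, which turns glutamate into alpha-ketoglutarate, read 419, 409 and 418 in sh-PNO1, against 616, 643 and 632 in sh-Ctrl (−0.60 ± 0.04 SE, adjusted p = 3.71e-05). ALDH18A1, the first enzyme of proline synthesis from glutamate, changed by −0.46, GCLC, the catalytic subunit of glutamate-cysteine ligase, by −0.36 and MAT2A, which makes S-adenosylmethionine from methionine, by −0.29. MAT2A changed by −0.45 without _x_at and _s_at probe sets.

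**Figure D4:**
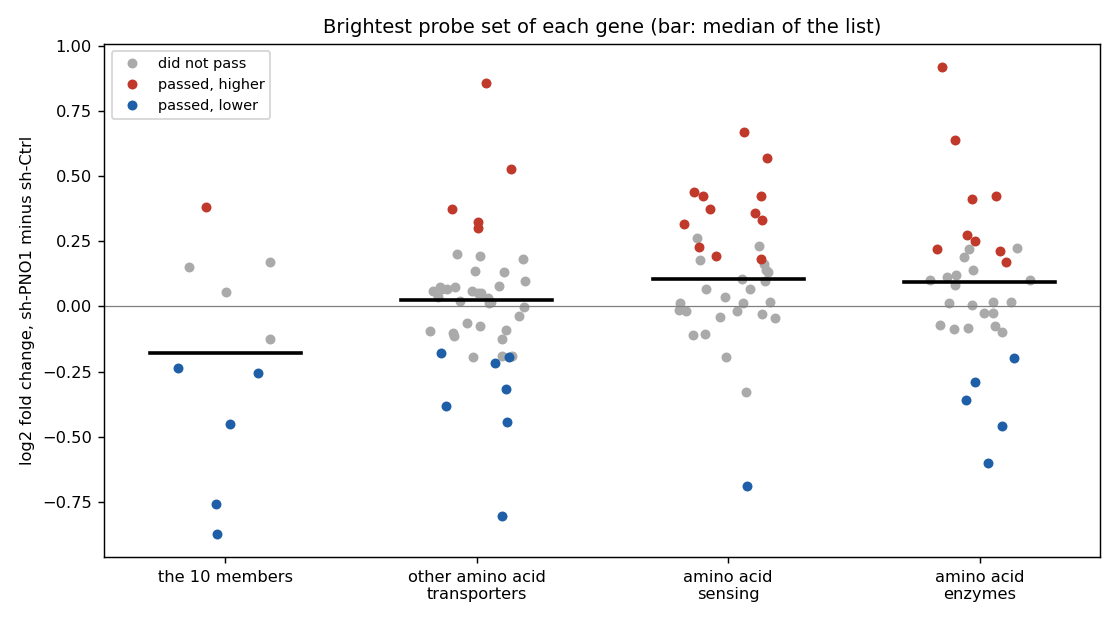
Log2 fold change, sh-PNO1 minus sh-Ctrl, at the brightest probe set of each gene of 4 lists, 1 point per gene, coloured by whether it passed, with the list median as a bar. The medians are −0.18 for the 10 members, 0.03 for 44 other carriers, 0.11 for 37 sensing genes and 0.09 for 34 enzymes.

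Over the 6 arrays, the genes whose profile lay nearest to that of SLC7A5 at its brightest probe set were SRPK1, a kinase of splicing factors (distance 0.05 on the log2 scale), ITPRIPL2 (0.07), MMS22L, a replication fork repair factor (0.10), and CBX3, a heterochromatin protein (0.10). The distance is Euclidean between log2 profiles centred on their own means, over 17719 genes. Their log2 fold changes were −0.87, −0.90, −0.84 and −0.85, beside −0.87 for SLC7A5, a likeness that follows from choosing them by distance on the same arrays. With probe sets averaged SRPK1 changed by −0.48 and MMS22L by −0.50.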

How the data were processed

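The authors deposited intensities, 1 per probe set and array, processed with RMA per the submitters' processing notes (version, software and genome build not given in the sources used here). Their linear scale was read from the values, and log2 of the deposited intensity was taken. Normalisation between arrays removes overall shifts, so changes are relative to other genes. Of 49395 probe sets 102 controls were left out. The platform annotation named the probe sets, 44988 with 1 symbol, 1832 with several and 2473 with none; 44961 of the 1-symbol ones were found by gene identifier in the GRCh38.p14 gene table, and 0 symbols changed. Limma 3.58.1 (R 4.3.3; lmFit, eBayes) was fitted without covariate and tested on simulated data. Groups came from the sample titles.

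The members and lists were chosen with earlier results of these data known. Named are all members, up to 4 genes per direction and list with the smallest adjusted p, the 4 profiles nearest to the member with the largest change at its representative (SLC7A5), and PNO1. Outside this rule, ATF4, ASNS, CTH, PYCR1, PSAT1, CHAC1, PHGDH, SHMT2, EIF2AK4, GCN1, IMPACT and EIF2S1 were named after their values were seen. The same holds for the cell type markers EPCAM, KRT8, KRT18, VIL1, CDH17, PTPRC, DCN, VWF, DES, CD3E and PECAM1. Scanner files were not used, and the number of arrays limits the precision. Alternatives were a replicate block, a trended robust prior, quantile normalisation repeated, equal array medians, an offset of 16, the dimmest 30% left out, 1 or averaged probe sets per gene, _x_at and _s_at probe sets left out, an adjusted p under 0.01 and each array left out.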

Additional observations from a re-analysis of the deposited data

How the results depend on the processing

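The 5 lower member genes remained 5 or became 6 under all 16 alternatives, and each of the 6 called members kept its direction and its call. The 1 higher member gene became 2 with probe sets averaged and 2 without _x_at and _s_at probe sets, SLC7A11 being the second, and ranged from 1 to 2 with single arrays left out. The 5 higher member probe sets became 2 at an adjusted p under 0.01 and ranged from 2 to 5 with single arrays left out. Other carriers that rose numbered 3 with probe sets averaged, against 5. Sensing genes that fell, 1 in all, numbered 2 with the replicate block, equal medians, 1 probe set per gene, or no _x_at and _s_at probe sets, 3 with the trended robust prior or without the dimmest 30%, 5 with probe sets averaged, and 1 to 2 with single arrays left out. Enzymes that rose, 9, numbered 15 with the trended robust prior, 5 at an adjusted p under 0.01 and 5 to 9 with single arrays left out. The difference of SLC7A5 to SLC3A2, −0.62, was −0.57 with the offset of 16 and −0.49 without _x_at and _s_at probe sets, where those of SLC7A11 and SLC7A6 were 0.57 and 0.77. With probe sets averaged, chosen after seeing the data, the 3 differences were −0.16, 0.51 and 0.70, and with the second SLC7A5 probe set, chosen likewise, that of SLC7A5 turned to 0.10. Directions turned for ACTA2 (−0.11 without _x_at and _s_at probe sets), ATF4 (−0.0042 with quantile normalisation repeated) and 2 dim SLC1A4 probe sets near 0: with single arrays left out the fourth in brightness ranged from −0.025 to 0.029 and the fifth from −0.056 to 0.033. The cause of these shifts was not tested. Over the array, 13791 probe sets passed, and 8666 at an adjusted p under 0.01 or 8711 of 34921 without _x_at and _s_at probe sets. Counts of probe sets were not run where 1 value per gene was tested, and the ratios were not run under settings that change only the test or the genes tested.

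The labels do not say whether replicate numbers pair the samples, and the values cannot settle it. Deviations from the group means correlated at −0.04, 0.10 and −0.03 between same-numbered arrays. By these deviations sh-PNO1 replicate 2 correlated best with sh-Ctrl replicate 2, and sh-PNO1 replicates 1 and 3 with sh-Ctrl replicates 3 and 1. With the replicate block 12964 probe sets passed, and the members' counts were again 1 higher and 5 lower genes, and 5 higher and 21 lower probe sets. Dim probe sets, whose own background is unknown, limit what can be said of SLC1A4 and SLC43A1.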
